A study of Mus musculus with 12 samples.

Results

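The diabetes difference under arctigenin was taken from 6 of the 12 mice of the study: 3 diabetic mice given arctigenin (DM_ATG) and 3 nondiabetic mice given arctigenin (Con_ATG), chosen by the group that the sample descriptions name. All 14096 listed genes were compared. Arctigenin (ATG) is a plant lignan, and the comparison asks what diabetes changed in the glomerulus when both sides received the drug. Every mouse was a male eNOS-/- mouse on C57BL/6J, so both groups lacked functional endothelial nitric oxide synthase throughout life. At 8 weeks of age the DM_ATG mice were injected with streptozotocin, 50 mg/kg on each of 5 days, and the Con_ATG mice with citrate buffer. From 10 weeks after induction both groups received ATG by gavage, 40 mg/kg per day, for 8 weeks, and the tissue was taken at 18 weeks. The other 6 mice, 3 diabetic (DM_DMSO) and 3 nondiabetic (Con_DMSO), had the same genotype and received the 5% DMSO vehicle in place of ATG. They share no mouse with the ATG comparison and serve below as the reference for the same contrast without the drug. Messenger RNA of isolated glomeruli was sequenced, 1 library per mouse. The sample records also describe dissociation into cells and a sort for a fluorescent protein, whereas the RNA step there and in the study's methods names glomeruli only, so the libraries were read as whole glomeruli.

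Streptozotocin destroys the insulin-producing cells of the pancreas, and diabetes that lasts injures the glomerulus, the filter of the kidney. The filter is built from fenestrated endothelial cells, mesangial cells that hold the capillary loops together, and podocytes, whose foot processes and slit diaphragms cover the loops from outside. Known features of diabetic glomeruli are matrix expansion, inflammation and podocyte loss, and lack of eNOS makes them more severe in mice. Isolated glomeruli usually carry some tubule.

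The values are log2 of normalised reads per gene, not divided by gene length, so they compare mice and not genes. A log2 fold change below is the DM_ATG mean minus the Con_ATG mean, with its standard error (SE), unless the vehicle is named. Genes were called at an adjusted p under 0.05 (limma, Benjamini-Hochberg over 14096 genes, all 12 mice in 1 fit). The 6 ATG libraries held 23.6 to 28.9 M reads on the listed genes. Podocyte markers made up 2.11%, 3.49% and 1.55% of the summed signal in Con_ATG and 3.54%, 3.79% and 3.98% in DM_ATG. Correlations between mice of 1 group were 0.973 to 0.986 in Con_ATG and 0.991 to 0.992 in DM_ATG, and the median gene's SD was 0.162 and 0.099. Nos3, the gene of eNOS, had reads in every library, at log2 values of 10.67, 10.63 and 10.07 in Con_ATG and 11.23, 11.35 and 11.25 in DM_ATG. A sum over the whole gene cannot show whether the deleted part was read, so it does not check the genotype.

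Tubule transcripts separated the 2 ATG groups. Genes of the proximal tubule and of the distal nephron and collecting duct, 67 in all, made up 4.90%, 3.44% and 5.19% of the summed signal in Con_ATG and 1.42%, 1.44% and 1.21% in DM_ATG. Their mean log2 value was 13.05, 12.44 and 12.81 against 11.22, 11.33 and 10.81, so the groups did not overlap. In Con_ATG replicates 1 and 3 the tubule share was above that of the 34 podocyte markers (2.11% and 1.55%). In Con_ATG replicate 2 the podocyte share was close to it (3.49%). The vehicle groups also differed, with 2.47% to 3.06% in Con_DMSO and 0.646% to 1.75% in DM_DMSO. In bulk tissue, fewer cells of a type and less RNA per cell cannot be told apart. The gene groups below are therefore given also with the mean of these 67 genes as a covariate in the fit, which widened the median SE from 0.12 to 0.21. The number before the dash in the sample titles, which may name a litter or a preparation, was held by mice of 1 group only, and Con_ATG replicate 3 had one of its own, so it cannot be told apart from the group.

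**Figure D1:**
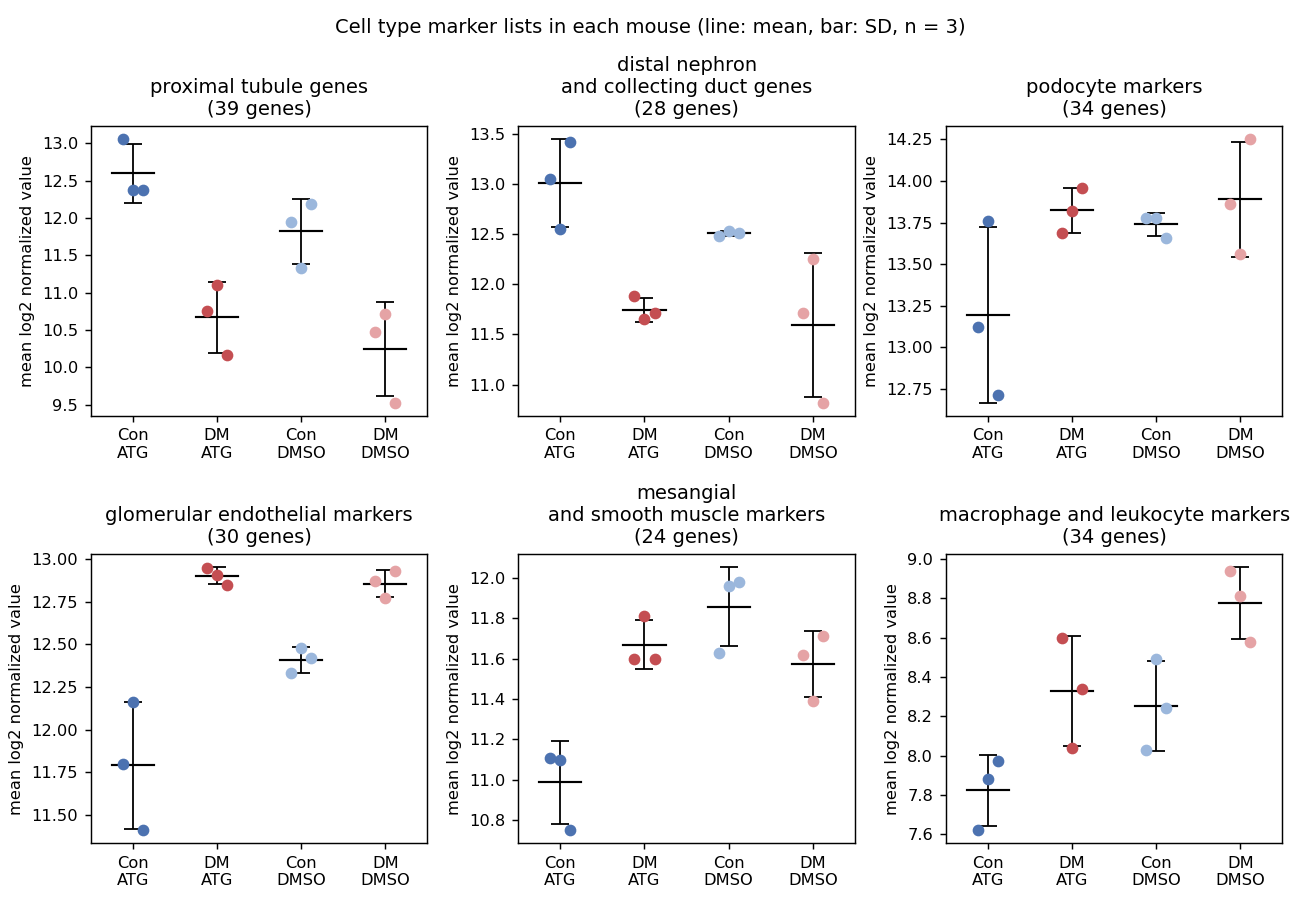
Mean log2 normalised value of 6 cell type marker lists in each of the 12 mice; points are mice, lines are group means and bars are SD (n = 3). The proximal tubule genes sit between 12.37 and 13.05 in Con_ATG and between 10.16 and 11.10 in DM_ATG, while the endothelial markers sit between 11.41 and 12.16 and between 12.85 and 12.95.

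A large part of the listed genes differed between diabetic and nondiabetic mice under ATG. Of 14096 genes, 6585 (46.7%) passed the test, 3649 (25.9%) higher and 2936 (20.8%) lower in DM_ATG. These shares are the reference for the counts of each gene list below. Changes of at least 1 on the log2 scale were seen for 566 higher and 875 lower genes. The 3 values of 1 group lay wholly above or below those of the other for 7909 genes (56.1%). With the tubule covariate, 189 genes (1.34%) were called, 149 higher (1.06%) and 40 lower (0.284%). Of these, 149 were also called in the same direction without it. The 4 genes with the lowest p were Cdk1, the kinase that starts mitosis, the scavenger receptor gene Scarf2, and Eda2r and Phlda3, both known p53 targets. The others of the 10 genes that rose with the lowest p were Cd248, Fkbp10, Cmtm3, Rab31, Stab1 and Cpt1c. All 10 were still called with the covariate (limma, adjusted p = 0.0142 to 0.0319).

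Genes of mitosis and G2/M rose together. The list held 48 genes, of which 44 rose and none fell, with a median log2 fold change of 1.04 against 0.05 over all genes. Cdk1 (chr10:69336635-69352912 on mm10) was at 5.96, 6.23 and 6.25 in Con_ATG and at 8.45, 8.63 and 8.51 in DM_ATG. All 3 diabetic mice lay more than 2 log2 units above every control, a difference of 2.38 (SE 0.12, adjusted p = 1.04e-05). Ccnb1, the cyclin partner of Cdk1, was at 5.87, 5.62 and 6.02 against 7.32, 7.69 and 7.32 (1.61, SE 0.16, adjusted p = 0.000122). Cdc20, which activates the anaphase-promoting complex, rose by 1.77 (SE 0.16), and Anln, an actin-binding protein of the cleavage furrow, by 1.22 (SE 0.098). With the tubule covariate the list's median was 1.12 and 8 of the 48 were still called, Cdk1 at 2.35 (adjusted p = 0.0142) and Ccnb1 at 2.16 (adjusted p = 0.0155). Under vehicle, where 10.2% of all genes rose and 8.63% fell, 43 of the 48 rose with a median of 0.91, and none of the 48 passed the test of the difference between ATG and vehicle. Of the 47 genes of S phase and DNA replication, 28 rose and 1 fell, with a median of 0.45. With the covariate the median was 0.52 and Mcm5 was the 1 member still called. Mcm5, part of the replicative helicase, was at 8.22, 8.20 and 8.18 in Con_ATG and at 9.11, 9.08 and 9.12 in DM_ATG. The groups were far apart, and the difference of 0.91 (SE 0.074, adjusted p = 5.42e-05) was 1.01 with the covariate (adjusted p = 0.0257).

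Promoters of mitotic genes are known to carry the cell cycle homology region (CHR, searched here as TTTGAA or TTTAAA) and CCAAT boxes, through which they are silenced in resting cells and driven in dividing ones. Windows of 300 bases around the start, taken from RefSeq on GRCm38.p6, were matched to 11151 of the listed genes and searched on both strands. A CHR was present in 29 of the 35 mitosis genes that rose and had a window (82.9%) and in 19.7% of all windows. A CCAAT box was present in 28 of the 35 (80.0%) and in 38.4% of all windows. Both were present in 25 of the 35 (71.4%) and in 7.95% of all windows. The windows of Cdk1 (chr10:69352863-69353162, minus strand) and Ccnb1 (chr13:100786437-100786736, minus strand) are printed because they encode the kinase and the cyclin that start mitosis together, with CHR and CCAAT letters of either strand in capitals. Cdk1 held 2 CHR and 3 CCAAT matches and Ccnb1 held 1 and 2.
Cdk1: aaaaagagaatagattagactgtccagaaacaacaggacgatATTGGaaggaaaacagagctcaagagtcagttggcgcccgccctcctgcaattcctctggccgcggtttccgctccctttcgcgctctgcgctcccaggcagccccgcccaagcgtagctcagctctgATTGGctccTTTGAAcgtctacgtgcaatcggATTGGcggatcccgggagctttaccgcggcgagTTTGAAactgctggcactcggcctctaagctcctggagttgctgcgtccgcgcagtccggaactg
Ccnb1: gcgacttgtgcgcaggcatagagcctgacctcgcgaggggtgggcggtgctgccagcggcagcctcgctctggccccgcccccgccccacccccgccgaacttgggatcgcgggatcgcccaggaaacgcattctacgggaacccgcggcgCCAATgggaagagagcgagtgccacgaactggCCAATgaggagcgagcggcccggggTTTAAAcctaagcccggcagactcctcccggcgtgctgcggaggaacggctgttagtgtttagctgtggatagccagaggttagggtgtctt
These matches describe the letters in the window and not a bound site.

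Targets of p53, the transcription factor that answers DNA damage and other stress, rose in 26 of 41 cases and fell in 1. These are 63.4% and 2.44% of the list, against 25.9% and 20.8% of all genes. Eda2r, a receptor of the TNF family, was at 6.32, 6.09 and 6.37 in Con_ATG and at 8.84, 8.64 and 8.90 in DM_ATG. The groups lay more than 2 log2 units apart, and the difference of 2.53 (SE 0.15, adjusted p = 1.44e-05) was 2.52 with the covariate. Phlda3, an inhibitor of Akt, rose by 2.04 (SE 0.13, adjusted p = 2.55e-05), from 9.16, 9.41 and 9.06 to 11.33, 11.21 and 11.22. Bax, which permeabilises mitochondria in apoptosis, rose by 1.03 (SE 0.089). Cdkn1a, the cell cycle inhibitor p21, was at 10.91, 11.0 and 10.32 against 13.05, 12.72 and 12.8, a rise of 2.11 (SE 0.26, adjusted p = 0.000288), and it was chosen after its values were seen. Ckap2 and Psrc1, both p53 targets that act on the mitotic spindle, rose by 2.23 and 2.16. With the covariate, where 1.06% of all genes were called higher and 0.284% lower, 11 of the 41 were called higher and 1 lower. The list median was 0.68, against 0.56 without it. Under vehicle, where 10.2% of all genes rose, 23 of the 41 rose with a median of 0.49, and none passed the test of the difference.

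Interferon-stimulated genes were higher in diabetic mice as a group, 43 of 49 rising (87.8%, against 25.9% of all genes) and none falling, with a median of 0.91. Isg15, a ubiquitin-like modifier, was at 7.71, 8.35 and 7.97 in Con_ATG and at 10.11, 9.74 and 10.14 in DM_ATG. The lowest diabetic mouse was well above the highest control, and the difference was 1.99 (SE 0.22, adjusted p = 0.000169). Lgals3bp, a secreted galectin ligand, rose by 1.35 (SE 0.13) and Ifi35 by 0.81 (SE 0.087). With the covariate the median was 0.68, and Lgals3bp was the 1 member still called (1.48, adjusted p = 0.0341). Isg15 then stood at 1.76 with an adjusted p of 0.0775. Under vehicle 27 of the 49 rose (median 0.74), against 10.2% of all genes, and none of the 49 passed the test of the difference. The core of the interferon-stimulated response element (ISRE), searched as a pair of GAAA separated by any 2 bases on either strand, was present in 17 of 31 promoter windows of members that rose (54.8%) and in 3.0% of all windows. The window of Isg15 (chr4:156200769-156201068, minus strand) is printed as an example, with its 3 overlapping matches in capitals.
Isg15: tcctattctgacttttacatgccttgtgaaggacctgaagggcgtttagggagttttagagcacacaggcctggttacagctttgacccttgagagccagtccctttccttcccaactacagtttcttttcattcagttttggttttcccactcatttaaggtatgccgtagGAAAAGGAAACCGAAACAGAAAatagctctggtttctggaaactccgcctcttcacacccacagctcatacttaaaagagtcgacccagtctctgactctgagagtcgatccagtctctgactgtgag
The CHR was present in 22.6% of the same 31 windows, against 19.7% of all windows. Among the 22 windows of p53 targets that rose, it was present in 11 (50.0%). A CHR together with a CCAAT box was present in 27.3% of those 22, against 7.95% of all windows, so the mitosis list was not alone in carrying these letters more often.

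Other immune genes rose in smaller numbers. The MHC and leukocyte lists had 70.8% and 47.1% higher, against 25.9% of all genes. The chemokine and NF-kB lists had 51.7% and 42.3% higher. Of 24 genes of MHC and antigen presentation 17 rose and none fell (median 0.74), among them B2m, the light chain of MHC class I, by 1.05 (SE 0.19) and the immunoproteasome subunit Psmb10 by 0.84 (SE 0.13). Of 34 macrophage and leukocyte markers 16 rose (median 0.53). The lowest p was that of Cd53, a leukocyte tetraspanin, at 9.50, 10.17 and 9.40 against 10.96, 11.04 and 11.05. Lyz2, the lysozyme of macrophages, rose by 1.45 (SE 0.30) and Coro1a, a leukocyte actin regulator, by 0.86 (SE 0.18). No member of these 2 lists was called with the covariate, where their medians were 0.41 and 0.49. Of 29 chemokines, interleukins and receptors 15 rose and 1 fell. Cxcl13, a chemokine that draws B cells, rose from 9.31, 9.09 and 9.12 to 11.31, 11.25 and 11.07, by 2.04 (SE 0.17, adjusted p = 5.42e-05), and by 1.88 with the covariate (adjusted p = 0.0341). The TNF receptor Tnfrsf1a rose by 0.64 (SE 0.066) and Tnfrsf1b by 0.93 (SE 0.11). Cxcl13 was the 1 member of the 29 called with the covariate (median 0.38), where Tnfrsf1a stood at 0.60 (adjusted p = 0.0525) and Tnfrsf1b at 0.96 (adjusted p = 0.0654). Of 26 NF-kB subunits and targets 11 rose and 3 fell, with Rela at 0.39 (SE 0.056), Nfkb1 at 0.49 (SE 0.078) and Birc3 at 0.85 (SE 0.11), and none of the 26 was called with the covariate (median 0.27). Of 22 complement genes 6 rose and 3 fell, a share near that of all genes, and 3 were called higher with the covariate.

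Markers of glomerular endothelium rose in 29 of 30 cases, with a median of 1.12 and none lower. Their mean log2 value was 11.80, 12.16 and 11.41 in Con_ATG and 12.95, 12.91 and 12.85 in DM_ATG. Sox18, an endothelial transcription factor, was at 10.83, 11.35 and 11.05 against 12.38, 12.55 and 12.42, and rose by 1.37 (SE 0.12, adjusted p = 8.02e-05). Gata5, a further endothelial transcription factor, rose by 1.61 (SE 0.14) and Mmrn2, a matrix protein of vessels, by 1.34 (SE 0.13). With the covariate the list's median was 0.89 and 4 of the 30 were called, Sox18 at 1.42 (adjusted p = 0.0341). Of 38 genes of VEGF, angiopoietin and shear responses 23 rose and 4 fell. Nos2, the inducible nitric oxide synthase, rose by 1.57 (SE 0.14), Ddah2, which degrades an inhibitor of these synthases, by 0.72 (SE 0.071), and the VEGF co-receptor Nrp2 by 0.96 (SE 0.11). With the covariate 2 of the 38 were called, both higher (median 0.53). Nos3 rose by 0.82 (SE 0.16, adjusted p = 0.00225) and stood at 0.55 with the covariate (adjusted p = 0.352). Of 22 genes of coagulation and fibrinolysis 12 rose and 5 fell, with Serpine2, a protease inhibitor, at 1.62 (SE 0.14), the thrombin receptor F2rl3 at 1.38 (SE 0.18) and Serpinf2, the antiplasmin gene, at -2.80 (SE 0.37). With the covariate Serpine2 was the 1 member called.

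Podocyte markers gave a result that turned with the tubule covariate. Of 34 markers 13 rose (38.2%, against 25.9% of all genes) and none fell, with a median of 0.66. The covariate left none called and a median of -0.30. Under vehicle none of the 34 was called, and the median was 0.15. Their mean log2 value was 13.12, 13.76 and 12.71 in Con_ATG and 13.69, 13.82 and 13.96 in DM_ATG, so the groups overlapped, and Con_ATG replicate 2, the control with the least tubule signal, lay among the diabetic mice. In Con_DMSO the mean was 13.78, 13.78 and 13.66, so DM_ATG also overlapped the nondiabetic vehicle mice. Wt1, the transcription factor that defines podocytes, was at 13.21, 14.09 and 12.85 against 13.78, 14.06 and 14.12. Its difference of 0.60 (SE 0.29, adjusted p = 0.11) did not pass, and it was 0.95 without Con_ATG replicate 2 (adjusted p = 0.00601), 0.33 without Con_ATG replicate 3 (adjusted p = 0.379) and -0.61 with the covariate (adjusted p = 0.437). Pla2r1, the phospholipase A2 receptor, rose by 0.90 (SE 0.096), the actin cross-linker Actn4 by 0.65 (SE 0.13) and the cell cycle inhibitor Cdkn1c by 1.05 (SE 0.22). Pla2r1 was the 1 member of the list that passed the test of the difference between ATG and vehicle. It stood at 0.76 with the covariate (adjusted p = 0.0775), unlike the list's median of -0.30, so it does not stand for the podocyte list. Of 30 slit diaphragm and foot process genes 16 rose and 2 fell (median 0.62). With the covariate the median was -0.11 and 1 was called, Anln, which is also a member of the mitosis list above. Cfl1, the actin-severing cofilin, rose by 0.54 (SE 0.085) and the scaffold Slc9a3r2 by 1.08 (SE 0.19). Of 19 genes of parietal epithelium and injury 4 rose and 3 fell, with Akap12 at 1.00 (SE 0.17), Cldn1 at 1.35 (SE 0.25) and Sox4 at -0.53 (SE 0.14). These shares, 21.1% and 15.8%, are near those of all genes, and none of the 19 was called with the covariate.

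Mesangial and smooth muscle markers rose in 17 of 24 cases (70.8%, against 25.9% of all genes) with none lower, a median of 0.73. Their mean log2 value was 11.11, 11.10 and 10.75 in Con_ATG and 11.60, 11.81 and 11.60 in DM_ATG. In Con_DMSO it was 11.63, 11.96 and 11.98, so DM_ATG overlapped the nondiabetic vehicle mice and Con_ATG lay below both. Under vehicle 1 of the 24 rose, 4 fell, and the median was -0.23. Fhl2, a cofactor of muscle gene transcription, rose by 1.12 (SE 0.15) under ATG and stood at 0.08 under vehicle (adjusted p = 0.739). The difference between these effects did not pass (1.04, adjusted p = 0.0581), nor did the value with the covariate (0.88, adjusted p = 0.134). The test of the difference was passed by 4 of the 24, all more positive under ATG: Pdgfrb, Itga8, Notch3 and Art3 (0.99 for Art3, adjusted p = 0.0489). Art3, a surface protein of the ADP-ribosyltransferase family, rose by 0.98 (SE 0.13) and Serpine2 by 1.62 (SE 0.14). With the covariate the median was 0.52 and Serpine2 was the 1 marker still called (1.69, adjusted p = 0.0319).

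Matrix and adhesion genes rose in larger shares than the genome. Of 52 collagens and matrix remodelling genes 32 rose and 3 fell (median 0.54), and under vehicle, where 10.2% of all genes rose against 25.9% under ATG, 11 rose and 5 fell. The test of the difference was passed by 4 of the 52: Col6a3, Col12a1, Nid1 and Adamts5. Col8a1, a collagen of vessel walls, was at 8.75, 8.51 and 8.30 in Con_ATG and at 9.92, 9.89 and 9.83 in DM_ATG. The groups were apart by more than 1 unit, and the difference of 1.36 (SE 0.13, adjusted p = 9.81e-05) was 1.75 with the covariate (adjusted p = 0.0155). The basement membrane nidogens Nid1 and Nid2 rose by 1.27 (SE 0.12) and 1.07 (SE 0.10), and 8 of the 52 were called higher with the covariate. Of 34 genes of the TGF-beta pathway 21 rose and 1 fell. Tgfb1, the ligand, was at 9.95, 9.99 and 9.57 against 11.05, 11.10 and 11.03, a rise of 1.23 (SE 0.11, adjusted p = 8.02e-05) that was 1.17 with the covariate (adjusted p = 0.0405). Its targets Id1 and Id3, which also answer BMP signals, rose by 1.52 (SE 0.12) and 0.89 (SE 0.10), and 3 of the 34 were called higher with the covariate. Of 22 integrins 14 rose and 1 fell, with Itga5, the fibronectin receptor chain, at 1.08 (SE 0.13) and Itga9 at 1.13 (SE 0.15), and none was called with the covariate (median 0.47). Of 53 genes of actin, WASP and focal adhesion 37 rose and 3 fell, with the actin regulator Vasp at 0.89 (SE 0.066), vinculin (Vcl) at 1.02 (SE 0.083) and filamin A (Flna) at 1.12 (SE 0.13). With the covariate 2 of the 53 were called, both higher (median 0.28).

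Actin, adhesion and phosphatase genes that the study itself follows were looked up by name. Zyx, the focal adhesion protein zyxin, rose by 0.93 (SE 0.11, adjusted p = 0.000257), Rapgef5, an activator of Rap, by 0.85 (SE 0.18) and Ckap4, a membrane protein, by 0.38 (SE 0.098). With the covariate none of these 3 was called, at 1.01 for Zyx (adjusted p = 0.0555), 0.10 for Rapgef5 (adjusted p = 0.861) and 0.53 for Ckap4 (adjusted p = 0.161). Itgb7, a leukocyte integrin chain, rose by 0.60 (SE 0.16, adjusted p = 0.0125), a call lost without Con_ATG replicate 1 (0.46, adjusted p = 0.0518) and without DM_ATG replicate 3 (0.53, adjusted p = 0.05), and it stood at 0.19 with the covariate (adjusted p = 0.773). Dbn1, the actin-binding protein drebrin, was at 10.73, 10.21 and 11.20 in Con_ATG and at 10.41, 10.28 and 10.34 in DM_ATG. The groups overlapped, and its difference of -0.37 (SE 0.24, adjusted p = 0.225) was -0.62 without Con_ATG replicate 2 (adjusted p = 0.0314), -0.12 without Con_ATG replicate 3 (adjusted p = 0.69) and 0.48 with the covariate (adjusted p = 0.522). Wash1 stood at 0.12 (SE 0.057, adjusted p = 0.104) and Was, the leukocyte actin nucleator, at 0.01 (SE 0.16, adjusted p = 0.969), and the sign of the latter turned with another scaling. For the protein phosphatase PP2A, the catalytic subunit Ppp2ca stood at 0.03 (SE 0.057) and the scaffold Ppp2r1a at 0.01 (SE 0.051), neither passing and both turning sign with another scaling. The second catalytic subunit Ppp2cb rose by 0.38 (SE 0.092, adjusted p = 0.00756) and stood at 0.15 with the covariate (adjusted p = 0.663). Of 28 PP2A subunits and modulators 10 rose and 6 fell, with the regulatory subunit Ppp2r5b at 0.57 (SE 0.091), Strn4 at 0.30 (SE 0.049) and Ppp2r3a at -0.96 (SE 0.16). The share that fell, 21.4%, is near that of all genes and the share that rose, 35.7%, is above it. With the covariate none of the 28 was called, the median was 0.02, and Ppp2r3a stood at -0.28 (adjusted p = 0.515).

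Genes of tubules and of energy metabolism were lower in DM_ATG. Of 39 proximal tubule genes 36 fell (median -1.94), and of 28 distal nephron and collecting duct genes 24 fell (median -1.28). Keg1, Cyp2d12 and Slc6a19, the last a tubular amino acid transporter, stood at -2.88 (SE 0.37), -3.15 (SE 0.41) and -2.64 (SE 0.39). Hsd11b2, which inactivates glucocorticoids in the collecting duct, stood at -1.97 (SE 0.30), the calcium exchanger Slc8a1 at -1.50 (SE 0.24) and the calcium-binding protein Pvalb at -2.24 (SE 0.39). These 67 genes form the covariate, so their values with it are no test. Of 75 genes of oxidative phosphorylation 73 fell and none rose, with a median of -0.64. Sdhc, a succinate dehydrogenase subunit, was at 13.11, 12.90 and 13.30 in Con_ATG and at 12.38, 12.42 and 12.33 in DM_ATG (-0.73, SE 0.13, adjusted p = 0.00146). Ndufb4 and Ndufs1, both subunits of complex I, stood at -0.55 (SE 0.098) and -0.86 (SE 0.16). With the covariate none of the 75 was called and the median was 0.10. Under vehicle 1 of the 75 passed the test, while all 75 values were negative (median -0.30), and none of the 75 passed the test of the difference between ATG and vehicle. Of 39 genes of fatty acid oxidation and ketone metabolism 32 fell and 1 rose (median -0.75). Ppara, the receptor that drives this programme, stood at -1.66 (SE 0.23), Etfdh at -0.71 (SE 0.10) and Cpt1a, the carnitine transferase of fatty acid entry into mitochondria, at -1.13 (SE 0.17). With the covariate none of the 39 was called and the median was -0.04. Ppara, Etfdh and Cpt1a then stood at -0.63, -0.37 and -0.45.

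Of 38 genes of insulin, IGF and glucose responses 19 fell and 7 rose (median -0.44). Igfbp1, a binding protein of insulin-like growth factors, was at 8.69, 8.87 and 8.53 in Con_ATG and at 6.22, 6.19 and 5.43 in DM_ATG. The groups lay more than 2 units apart, a difference of -2.75 (SE 0.26, adjusted p = 9.81e-05) that was -1.86 with the covariate (adjusted p = 0.0662). Akt1, a kinase of insulin signalling, rose by 0.50 (SE 0.057), and Pdk2, which restrains pyruvate oxidation, stood at -0.86 (SE 0.098). With the covariate none of the 38 was called and the list's median turned to 0.05, with Akt1 at 0.43 (adjusted p = 0.078) and Pdk2 at -0.68 (adjusted p = 0.0928). Among the 10 genes that fell with the lowest p, Reps2, a protein of endocytosis, stood at -1.08 (SE 0.089, adjusted p = 5.42e-05), Pank1, the first enzyme of coenzyme A synthesis, at -1.10 (SE 0.098) and the receptor Erbb3 at -1.63 (SE 0.17). With the covariate 3 of the 10 were still called, Reps2 at -0.98 (adjusted p = 0.0356), Pank1 at -0.75 (adjusted p = 0.0493) and Anxa13 at -1.77 (adjusted p = 0.0499). The others of the 10 were Asb9, Anxa13, Igfbp1, Syn3, Marchf8, Nxt2 and Hacd2, at log2 fold changes of -2.75 to -0.54.

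The remaining stress and regulatory lists held 2 calls with the covariate, 1 among the immediate early genes and 1 among the clock genes. Without it, 12 of 29 immediate early genes rose (41.4%, against 25.9% of all genes), with Ctgf at 1.72 (SE 0.29), Mcl1, which protects from apoptosis, at 0.70 (SE 0.12) and Klf6 at 0.82 (SE 0.15). The median of the 29 was 0.71, and -0.06 under vehicle, where 4 rose and 1 fell. With the covariate all 29 values were positive, with a median of 1.41. None of the 29 passed the test of the difference between ATG and vehicle. Ctgf, a matrix-linked growth factor gene, was at 14.10, 14.16 and 12.81 in Con_ATG and at 15.53, 15.48 and 15.23 in DM_ATG. Of 36 NRF2 targets and oxidant enzymes 7 rose and 12 fell, with catalase (Cat) at -0.95 (SE 0.12), Me1 at -1.42 (SE 0.24) and Gclc, the first enzyme of glutathione synthesis, at -1.13 (SE 0.19). These are 19.4% and 33.3% of the list, against 25.9% and 20.8% of all genes, and the list's median turned from -0.19 to 0.27 with the covariate. Of 34 genes of the unfolded protein and integrated stress response 5 rose and 1 fell, below the share of all genes, with Atf4 at 0.65 (SE 0.12), Ddit3 at 0.48 (SE 0.12) and Trib3 at 1.12 (SE 0.30). Of 18 renin-angiotensin and steroid response genes 5 rose and 3 fell, with the kinase Sgk1 at 1.48 (SE 0.17) and Hsd11b1 at -1.50 (SE 0.22). These shares, 27.8% and 16.7%, are near those of all genes, and Sgk1 stood at 1.58 with the covariate (adjusted p = 0.0546). Of 38 genes of sterol and fatty acid synthesis 5 rose and 11 fell, with the cholesterol exporter Abcg1 at 0.67 (SE 0.086), its relative Abca1 at -0.67 (SE 0.11) and Ebp at -0.42 (SE 0.056). The shares were 13.2% higher and 28.9% lower, against 25.9% and 20.8% of all genes. Of 77 cytosolic ribosomal protein genes 5 rose (6.49%, below the 25.9% of all genes), with a median of 0.08. Under vehicle 22 of the 77 rose with a median of 0.20, where 10.2% of all genes rose. Of the calls under ATG, those of Rpl39 (0.23), Rps16 (0.26) and Rps12 (0.28) were each lost when Con_ATG replicate 1 was left out (0.19, 0.23 and 0.25, with adjusted p = 0.0519, 0.0636 and 0.0693). Rps16 and Rps12 also lost it without DM_ATG replicate 1 (0.23 and 0.26) or replicate 2 (0.25 and 0.26), and Rps12 without Con_ATG replicate 3 (0.22). Of 19 clock genes 2 rose and 2 fell (10.5% each, below the shares of all genes), with Cry1, a repressor of the clock, at 0.76 (SE 0.13). Of 7 erythrocyte genes 1 rose and 1 fell (14.3% each, below the shares of all genes). Hba-a1 at 1.36 (SE 0.45) lost its call without Con_ATG replicate 1 or 3 or DM_ATG replicate 1 or 2 (1.22 to 1.37, adjusted p = 0.0681 to 0.0909). Slc4a1, which collecting duct cells also express, stood at -1.17 (SE 0.29) and at 0.12 with the covariate.

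**Figure D2:**
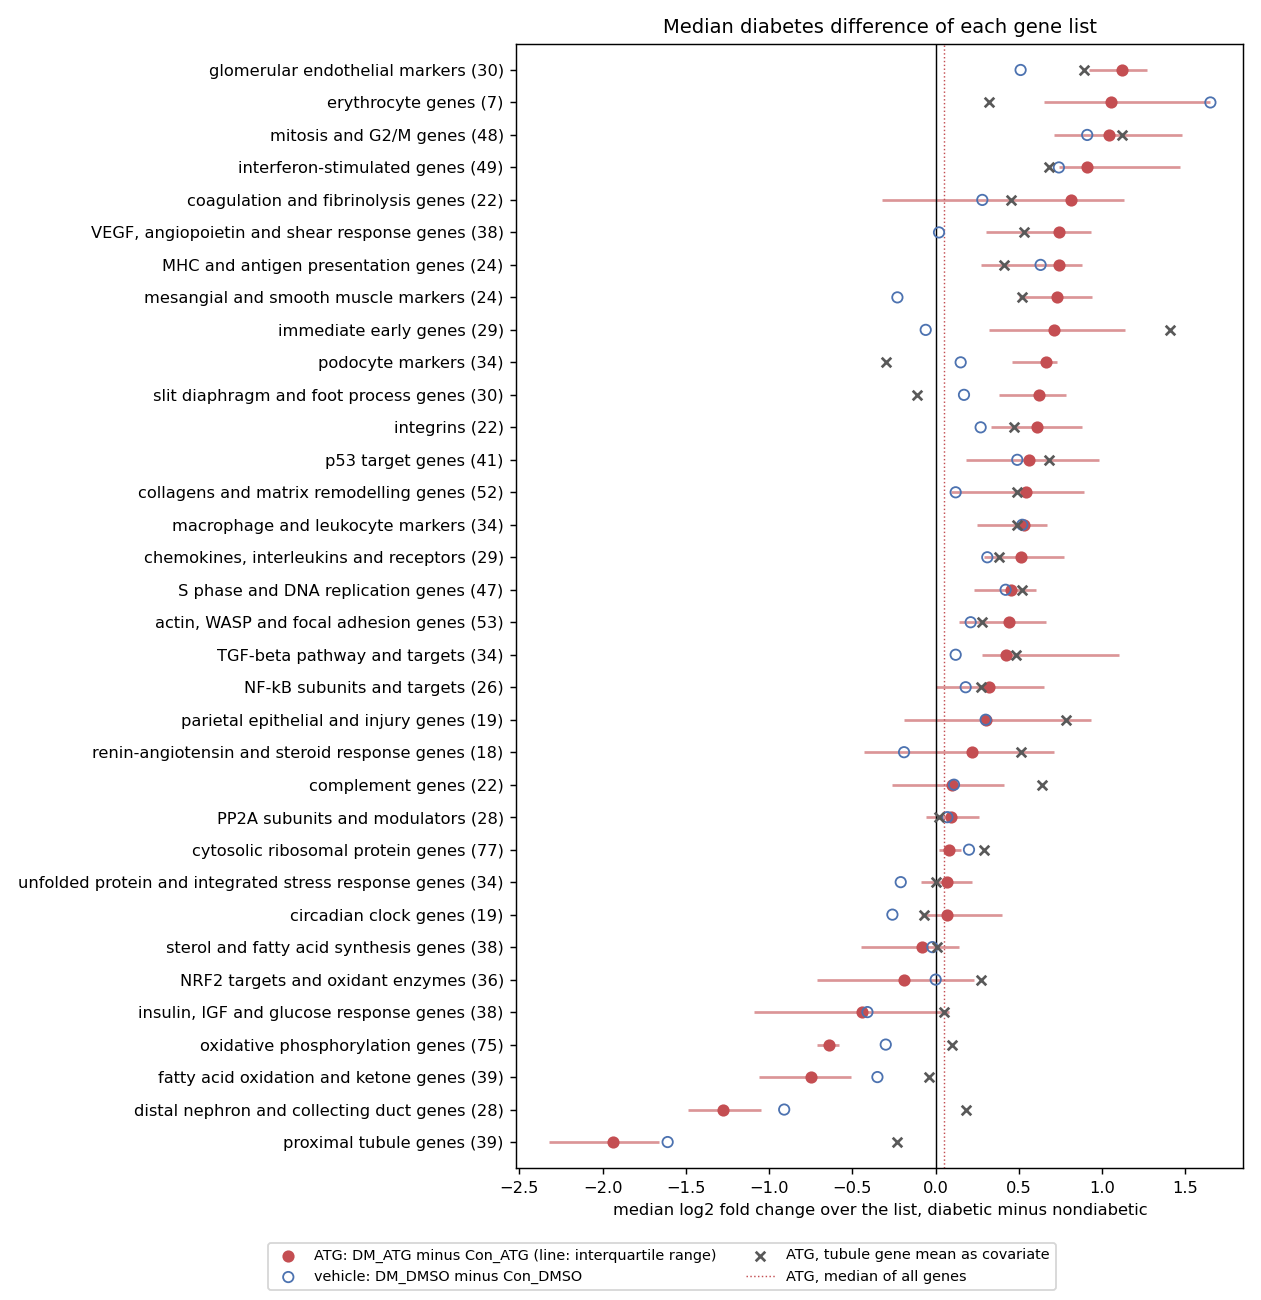
Median log2 fold change, diabetic minus nondiabetic, over each of 34 gene lists (number of genes in brackets); filled points are the ATG groups with the interquartile range of genes as a line, open circles the vehicle groups and crosses the ATG groups with the tubule covariate. The mitosis list stands at 1.04, 0.91 and 1.12, whereas oxidative phosphorylation stands at -0.64, -0.30 and 0.10.

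Most of what changed under vehicle also changed under ATG. Between DM_DMSO and Con_DMSO 2659 genes (18.9%) were called, 1442 higher (10.2%) and 1217 lower (8.63%). Of these, 2237 changed in the same direction under ATG, which is 84.1% of the vehicle calls and 34.0% of the ATG calls. The 10 shared genes with the lowest larger p were Cdk1, Eda2r, Phlda3, Bax, Ckap2, Psrc1, Mcm5, Ccnb1, the chloride channel gene Ttyh3 and Hdc, which makes histamine. Hdc rose by 2.03 (SE 0.22) under ATG and 2.18 (SE 0.22) under vehicle, and Ttyh3 by 0.86 (SE 0.067) and 0.70 (SE 0.067). Their differences between the treatments did not pass (adjusted p = 0.824 and 0.475). The number of shared calls fell to 711 without Con_DMSO replicate 1, 1435 without Con_DMSO replicate 2, 1089 without Con_DMSO replicate 3 and 923 without DM_DMSO replicate 1. Across all genes the 2 sets of fold changes had r = 0.845 and rho = 0.766, as a description, since genes are not independent and both contrasts carry the tubule difference.

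**Figure D3:**
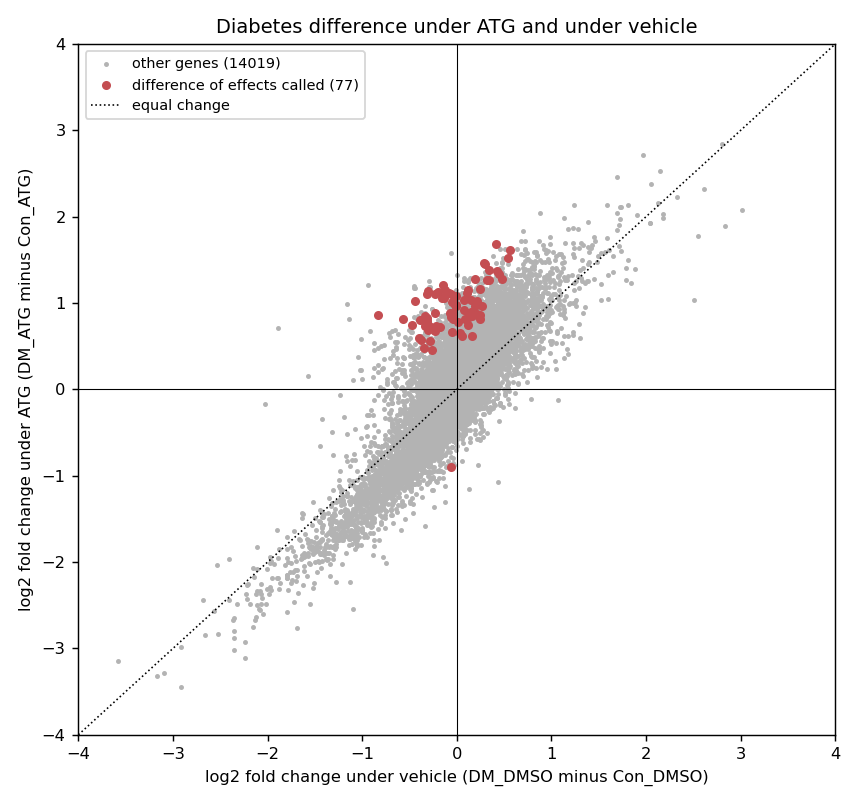
Log2 fold change of each of 14096 genes under vehicle (x axis) and under ATG (y axis); red points are the 77 genes whose difference between the 2 passed the test. All but 1 of them lie above the dotted line of equal change.

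The larger count of calls under ATG does not by itself show that diabetes acted differently there. Of the 4334 genes called only under ATG, 63 passed the test of the difference between the 2 effects, and of the 408 called only under vehicle, 0 passed (limma; 1812 of all genes were at an unadjusted p under 0.05 in that test). In all, the diabetes effect differed between ATG and vehicle for 77 genes (0.546%), 76 of them more positive under ATG (0.539%). For 75 of the 77 the lowest of the 4 group means was in Con_ATG. Scarf2, a scavenger receptor, was at 9.83, 9.92 and 9.73 in Con_ATG, at 11.10, 11.12 and 11.05 in DM_ATG, at 10.65, 10.69 and 10.88 in Con_DMSO and at 11.14, 11.05 and 11.06 in DM_DMSO. The 2 diabetic groups overlapped, and the 2 nondiabetic groups were apart. Its effects of 1.27 (SE 0.073) and 0.34 (SE 0.073) differed by 0.92 (SE 0.10, adjusted p = 0.00683). Coro2a, an actin regulator, was at 10.23, 10.07 and 9.81 in Con_ATG and at 11.05, 11.18 and 10.93 in DM_ATG, but at 10.78, 10.75 and 10.84 in Con_DMSO and at 10.18, 10.41 and 10.47 in DM_DMSO. Its diabetes difference was 1.02 under ATG and -0.44 under vehicle, each called and opposite in sign. Such opposite calls were made for 14 genes, all higher under ATG and lower under vehicle, and 6 of the 14 passed the test of the difference: Coro2a, Dock10, Steap4, Skil, Npy1r and the collagen gene Col12a1. Over the 77 genes the median of Con_ATG minus Con_DMSO was -0.75 and that of DM_ATG minus DM_DMSO 0.18. With the covariate 36 of the 77 were still called.

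This count moved with single libraries. It was 770 without Con_ATG replicate 2, 124 without DM_DMSO replicate 3, and 6 to 35 without any other mouse, namely 35, 6 and 7 without Con_DMSO replicates 1, 2 and 3, 9 and 12 without DM_DMSO replicates 1 and 2, 14 and 35 without Con_ATG replicates 1 and 3, and 16, 8 and 6 without DM_ATG replicates 1, 2 and 3.

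**Figure D4:**
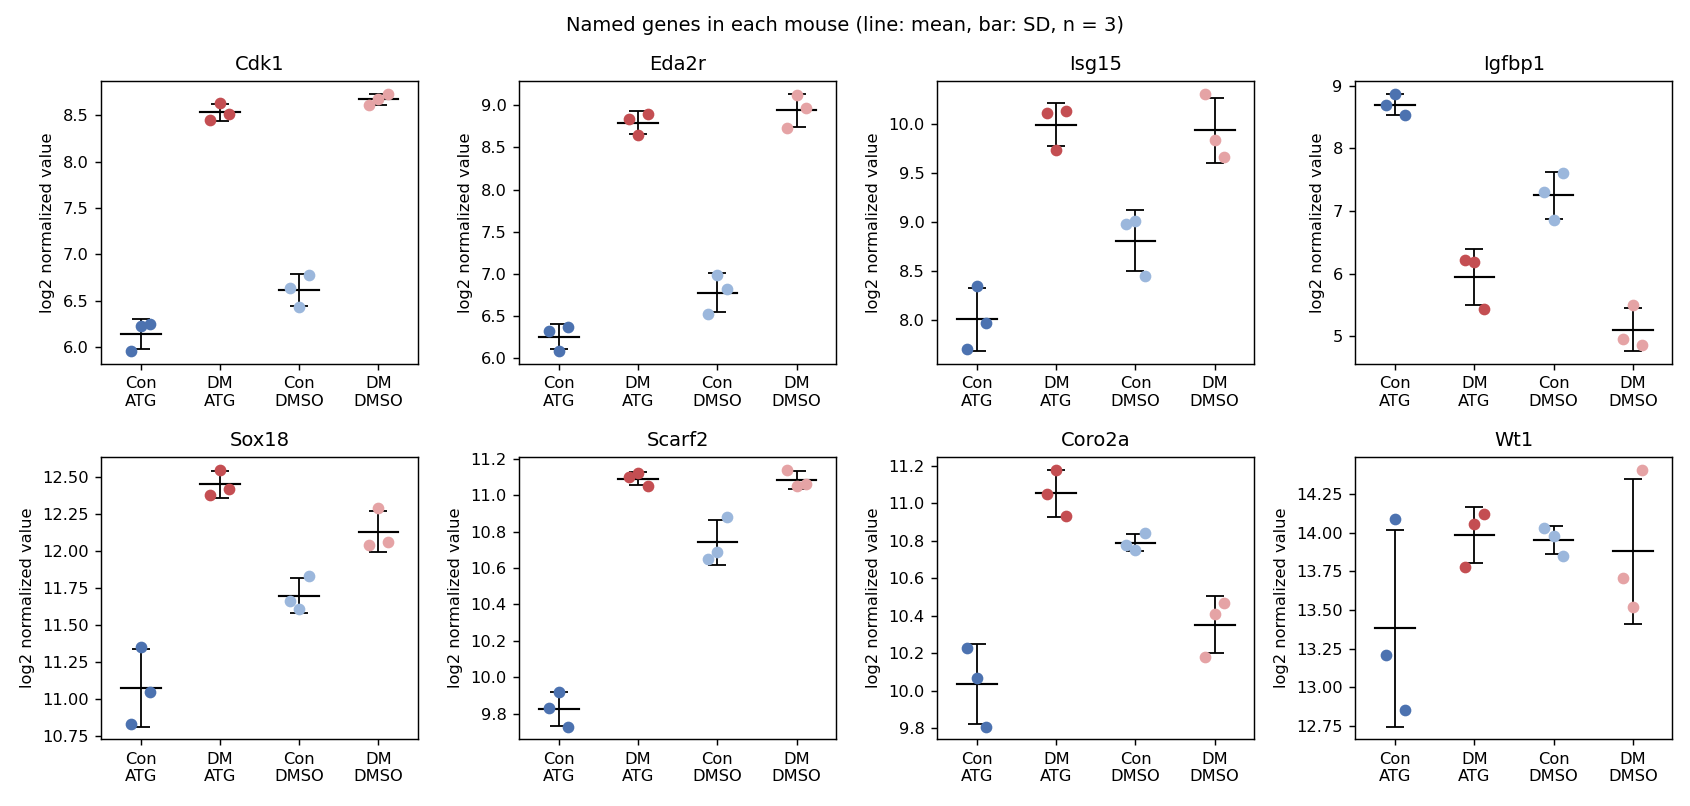
Log2 normalised value of 8 genes in each of the 12 mice; points are mice, lines are means and bars are SD (n = 3). Cdk1 sits between 5.96 and 6.25 in Con_ATG and between 8.45 and 8.63 in DM_ATG, whereas Wt1 overlaps, with Con_ATG replicate 2 at 14.09.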

How the data were processed

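Glomeruli of 12 mice, 3 in each of 4 groups, were sequenced after poly-A selection. The deposited files, as the authors made them, list a log2 expression level for each gene in each mouse. The submitters' processing notes name mm10 and limma. The aligner and the counter are not given in the sources used here. The linear values were whole reads times 1 factor per library for 83.7% to 84.3% of values under 2000 (within 0.02 of a whole read), which gave 23.6 to 29.8 M reads per library.

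All 14096 genes were fitted in limma 3.58.1 (R 4.3.3) with 4 group means and a mean-variance trend, with Benjamini-Hochberg adjustment, after a test on simulated data. Contrasts were DM_ATG minus Con_ATG, DM_DMSO minus Con_DMSO and their difference. Named genes were the 10 of lowest p in each direction, the 3 of lowest p in each of 34 lists, Nos3 and 12 genes of the study, the 5 of lowest p in each direction for the difference, and the 10 shared with vehicle. The members and lists were chosen with earlier results of these data known. Symbols written as dates were restored through Entrez IDs for 20 of 20 genes. Promoter windows came from RefSeq. The alternatives tried are given at the end of the text. Replicate numbers in the titles were checked for pairing: deviations of same-numbered ATG mice correlated at 0.178 and 0.035, so they were not taken as pairs.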

Additional observations from a re-analysis of the deposited data

Results flagged for a closer look

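The diabetes effect differed between ATG-treated and vehicle-treated mice for 77 genes in the test of the difference itself (limma, Benjamini-Hochberg over 14096 genes). Those that the naming rules had singled out are listed here with the ATG effect minus the vehicle effect on the log2 scale. Actin and adhesion genes were Vcl (0.81), Flna (1.01), Itga8 (1.34), Coro2a (1.46) and Dock10 (1.19). From the endothelial marker list came Gata5 (1.05) and Sox18 (0.94). From the podocyte marker list came Pla2r1 (0.75), the 1 of its 34 members that passed this test. Stromal and matrix genes were Cd248 (1.15), Art3 (0.99) and Nid1 (0.95). Complement genes were C1ra (0.6), C1s1 (0.91) and Serping1 (0.73). The others were Scarf2 (0.92), Id1 (0.98), the phospholipase Pla2g4a (0.86), the endocytic receptor Lrp1 (1.2) and the noncoding RNA Lppos (-0.84), the 1 gene with a more negative effect under ATG.

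For 75 of the 77 the lowest group mean was in Con_ATG, as for Lrp1. It was at 11.12, 10.95 and 10.76 in Con_ATG, at 12.01, 12.12 and 12.07 in DM_ATG, at 11.94, 12.01 and 12.19 in Con_DMSO and between 11.88 and 12.03 in DM_DMSO, so 3 groups overlapped and Con_ATG was lower. Tubule signal was highest in the same group, at 3.44% to 5.19% of the sum, and with it as a covariate 36 of the 77 were still called.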

How the results depend on the processing

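Under ATG, 6585 genes were called. The count was 5527 with only the 6 ATG mice, 6452 without a trend, 6409 with median-ratio scaling, 6382 with limma-voom and 6577 with at least 10 reads in every mouse. It was 3697 (2202 higher, 1495 lower) among genes above the median level, where fewer genes were tested, 3907 (2200 and 1707) at an adjusted p under 0.01, 1441 (566 and 875) with a fold threshold added and 189 (149 and 40) with the tubule covariate. The cause of the last drop was not tested. Of the calls, 55.4% were higher, against 49.3% with median-ratio scaling and 50.7% with limma-voom. Leaving out 1 mouse gave 4766 to 7451. With the replicate number of the titles as a block, 4422 were called, 2534 higher and 1888 lower. The same fit gave 8 genes for the difference between ATG and vehicle and 1010 shared calls. Con_ATG and Con_DMSO replicate 3 have no such number and formed a block of their own, so this was not a paired fit.

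The 77 genes of the difference were 19 without a trend, 28 with limma-voom, 38 with the covariate, 5 at an adjusted p under 0.01, 35 with the fold threshold and 6 to 770 with 1 mouse left out. The 2237 shared calls were 1153 above the median level, 118 with the covariate, 509 at an adjusted p under 0.01, 489 with the fold threshold and 711 to 2842 with 1 mouse left out.

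Of 140 named genes, 133 are not part of the covariate, and 84 of the 126 called among them lost their call with it. The sign turned for 3: Slc4a1 (0.12), Dbn1 (0.48) and Wt1 (-0.61). Was turned to -0.03 with median-ratio scaling and -0.01 with limma-voom, and Ppp2r1a to -0.04 and -0.02. Ppp2ca turned to -0.01 with median-ratio scaling. With 1 mouse left out, Was ranged from -0.1 to 0.13 and Ppp2r1a from -0.01 to 0.02. With 1 mouse left out, the medians of 11 of the 34 gene lists moved by more than the SD between mice, and 2 turned sign: complement genes from 0.10 to -0.20 without DM_ATG replicate 1 and -0.07 without Con_ATG replicate 1, and unfolded protein response genes from 0.07 to -0.07 without Con_ATG replicate 3. Under median-ratio scaling or above the median level 8 lists moved, and above the median level the parietal list turned from 0.30 to -0.15 and the erythrocyte list from 1.05 to -1.17.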

Other observations

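With the tubule gene mean as a covariate, 40 genes were called that were not called without it. The one with the lowest p, picked after its values were seen, was Megf9, a membrane protein with EGF-like repeats. It was at 10.08, 10.32 and 10.26 in Con_ATG and at 9.84, 9.84 and 10.16 in DM_ATG. The groups overlapped, and the difference of -0.27 (SE 0.16) was -1.10 (SE 0.12) with the covariate (limma, adjusted p = 0.0142). Of the 189 genes called with the covariate, 118 were also called in the same direction in the vehicle groups with it.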
